A study of Homo sapiens with 12 samples.

Results

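LC-2/ad is a human lung adenocarcinoma cell line known for a CCDC6-RET fusion, in which a chromosome 10 rearrangement joins the start of CCDC6 to the kinase part of the receptor RET. It was described here by its 3 libraries, chosen by the cell line label, of 12 libraries in all. LC-2/ad was profiled in attached culture, after 1 day detached and after 7 days detached, with 1 library in each state. NCI-H2009, another lung adenocarcinoma line, NCI-H2228, a line with an EML4-ALK fusion, and HCC4006, a line with an EGFR deletion, were profiled in the same 3 states, which gives 9 libraries to set it against. All lines were grown in the same serum-containing medium, and the detached cells had been trypsinized and placed on plates with an ultra-low attachment surface. Each line stands for 1 tumour, and RNA was measured in bulk, so that fewer cells of a kind and less RNA per cell cannot be told apart. The 3 libraries of a line served as its replicates across states, with state as a block. They differ in treatment and come from 1 line each, so p-values speak of these cultures and not of RET-fusion tumours.

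RET is a receptor tyrosine kinase. It normally binds ligands of the GDNF family together with a GFRA co-receptor, and it signals through the RAS and ERK cascade. In lung tumours with a RET fusion, a dimerizing partner such as CCDC6 stands in for the ligand, and the fused gene is transcribed from the promoter of the partner. Lung adenocarcinomas commonly keep markers of alveolar type 2 cells, which make surfactant under the lineage factor NKX2-1. Adenocarcinoma lines range from an epithelial state with keratins and cadherin junctions to a mesenchymal state with vimentin.

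Levels are given in TPM, a transcript abundance scaled to gene length and library depth, and a set of 3 values is always in the order attached, day 1, day 7. A gene was called set apart where LC-2/ad differed in the same direction from each of the other 3 lines in edgeR's quasi-likelihood test. The largest of the 3 p-values was adjusted with the Benjamini-Hochberg method over all 18494 genes tested, and the threshold was 0.05. A gene on different sides of different lines has an adjusted p of 1 by construction. A log2 difference is LC-2/ad minus the line nearest to it, with the standard error (SE) that the test implies. Medians of gene lists and of windows, and counts of genes above or below 0, use another difference. It is LC-2/ad minus the mean of the other 3 lines, and was above 0 for 9393 of the 18494 genes tested. LC-2/ad was higher for 95 genes (0.514% of those tested) and lower for 272 (1.47%), or 1.98% in all. Of 14800 protein-coding genes, 87 were higher (0.588%) and 239 lower (1.61%). Of the 95, 92 had all 3 LC-2/ad libraries above all 9 others, and of the 272, 258 had them below. Such a separation held for 4.24% of all genes tested upward and 4.74% downward.

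The promoters of RET and CCDC6 are shown first, because the fusion known for the line puts the RET kinase behind the second of them. The 2 stretches of 300 bases run from 250 bases before to 50 after the gene's start in RefSeq on GRCh38.p14, the RET promoter at chr10:43076819-43077118 on the plus strand and the CCDC6 promoter at chr10:59906507-59906806 on the minus strand, with CG dinucleotides in capitals.
RET: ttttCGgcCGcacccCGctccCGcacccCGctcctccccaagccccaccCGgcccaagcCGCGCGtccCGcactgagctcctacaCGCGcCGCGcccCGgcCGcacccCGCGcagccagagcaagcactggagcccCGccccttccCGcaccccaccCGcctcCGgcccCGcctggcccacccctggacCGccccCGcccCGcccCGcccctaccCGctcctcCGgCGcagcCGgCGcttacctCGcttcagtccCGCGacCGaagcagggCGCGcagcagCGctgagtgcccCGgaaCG
CCDC6: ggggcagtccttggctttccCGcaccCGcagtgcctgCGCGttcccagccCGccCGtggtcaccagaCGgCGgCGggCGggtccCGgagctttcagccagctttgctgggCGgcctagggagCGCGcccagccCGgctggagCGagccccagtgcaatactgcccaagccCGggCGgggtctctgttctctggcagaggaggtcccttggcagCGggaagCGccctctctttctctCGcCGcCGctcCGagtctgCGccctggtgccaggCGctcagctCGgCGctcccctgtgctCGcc
The RET window held 41 CG dinucleotides and the CCDC6 window 29, against a median of 14 over 27305 promoters.

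RET was expressed at a steady level in LC-2/ad and was low or undetected in the other lines. RET, on chromosome 10 from 43077064 to 43130351 in GRCh38, stood at 11.9, 14.4 and 12.7 TPM in LC-2/ad. It stood at 0, 0 and 0 TPM in NCI-H2009, 0.497, 1.61 and 1.02 TPM in NCI-H2228 and 0.806, 1.16 and 0.94 TPM in HCC4006. Each LC-2/ad library was above each of the 9 others, by a log2 difference of 3.63 ± 0.35 (SE) to NCI-H2228 (edgeR adjusted p 0.00301). Against NCI-H2009, where no RET count was found, LC-2/ad was at least 381-fold higher in depth-scaled counts, taking a floor of 3 counts in the smallest library. When the 9 other libraries were fitted as 1 group, RET was not called (log2 difference 4.23, adjusted p 0.129). The gene totals do not tell fusion from full-length RET transcripts. Within 1 Mb of the start of RET, 10 protein-coding genes were tested, and besides RET only RASGEF1A, a Ras-family exchange factor, was called; it was lower (adjusted p 0.0447). The other 8 were between -0.70 and 0.23 in log2 difference to the mean of the other lines.

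The fusion partner CCDC6, a coiled-coil protein, had its lowest levels in LC-2/ad without passing the test. CCDC6, on chromosome 10 from 59788747 to 59906556, stood at 6, 6.04 and 5.002 TPM in LC-2/ad. It stood at 11.8, 7.07 and 13.7 TPM in NCI-H2009, 12.2, 9.25 and 12.4 TPM in NCI-H2228 and 22.3, 20.1 and 19.7 TPM in HCC4006. The 3 LC-2/ad libraries lay below all 9 others, and the log2 difference to NCI-H2009 was -0.76 ± 0.19 (edgeR adjusted p 0.0797). None of the 5 genes tested within 1 Mb of its start, CCDC6 included, was called.

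The co-receptors of RET were at or near 0 in LC-2/ad, while the ligands ARTN and NRTN were present. GFRA1, the co-receptor for GDNF, stood at 0.104, 0 and 0.044 TPM, and GFRA2, GFRA4, GFRAL and the ligand GDNF were at 0 in its 3 libraries. GFRA3, the co-receptor for artemin, stood at 0, 0.022 and 0 TPM in LC-2/ad and at 0 to 1.30 TPM in the others. Artemin itself (ARTN) stood at 3.23, 3.19 and 6.42 TPM in LC-2/ad, inside the span of 0 to 77.2 TPM over the other lines. Neurturin (NRTN) stood at 1.96, 4.56 and 1.89 TPM in LC-2/ad and 0.509 to 17.9 TPM in the others. GDF15, the ligand of GFRAL, stood at 45.4, 74.95 and 346 TPM in LC-2/ad and 15.4 to 1565 TPM in the others, and persephin (PSPN) did not exceed 0.184 TPM in LC-2/ad. Of the 7 members of this list that could be tested, RET was the only one called.

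Among other driver kinases and fusion partners, CCDC6 included, 0 of 28 were called in edgeR. An unadjusted p under 0.05 was reached by 6 of them, DESeq2 called 2, and limma called 1 on log2(TPM + 1) and 0 on log2(TPM + 0.1). Of 9 ligands of EGFR and MET none was called or had an unadjusted p under 0.05, and DESeq2 and limma called none. ALK stood at 0.039, 0 and 0.131 TPM in LC-2/ad, against 7.81, 7.44 and 8.14 TPM in NCI-H2228. EGFR stood at 34.9, 27.2 and 35.9 TPM in LC-2/ad, above NCI-H2009 (26.5, 10.9 and 16.1 TPM) and below NCI-H2228 and HCC4006 (63.5 to 125 TPM). EML4, the fusion partner of ALK in NCI-H2228, stood at 58.2, 56.1 and 57.7 TPM in LC-2/ad and 35.7 to 103 TPM in the others. For ALK and EGFR, LC-2/ad was on different sides of different lines, and for EML4 its range overlapped with theirs. The 3 libraries of LC-2/ad lay above all others for 3 members of this list, none of them called. PDGFRA, a platelet-derived growth factor receptor, stood at 4.64, 9.16 and 6.43 TPM against at most 1.82 TPM (adjusted p 0.139). MET, the receptor of hepatocyte growth factor, stood at 124, 123 and 159.7 TPM against at most 109 TPM (adjusted p 0.33). FGFR3, a fibroblast growth factor receptor, stood at 10.7, 17.1 and 12.5 TPM in LC-2/ad and 0.418 to 5.74 TPM in the others (adjusted p 0.253).

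The immediate early factor EGR1 and its corepressor NAB2 were higher in LC-2/ad, while the other ERK output genes were not called. A link of either gene to RET was not tested. EGR1, a zinc finger factor induced by ERK through serum response factor, stood at 21.9, 17.1 and 21.4 TPM in LC-2/ad, against 1.28, 0.844 and 2.80 TPM in NCI-H2009, 5.34, 1.90 and 6.001 TPM in NCI-H2228 and 4.33, 4.91 and 3.77 TPM in HCC4006. The log2 difference to HCC4006 was 2.18 ± 0.37 (edgeR adjusted p 0.0175). NAB2, which binds EGR1 and is itself an EGR1 target, stood at 17.4, 23.4 and 20.8 TPM in LC-2/ad and 4.49 to 6.80 TPM in the others, a log2 difference of 1.77 ± 0.24 (adjusted p 0.00604); NAB2 was chosen after its values were seen. For both genes all 3 LC-2/ad libraries lay above the 9 others. The EGR1 call was lost in 4 of 24 alternative settings and the NAB2 call in 0.

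EGR1 was the only one of 21 ERK output genes called, and the median log2 difference of the list to the mean of the other lines was -0.40, against 0.02 over all genes tested. DUSP4, a phosphatase that acts on ERK, stood at 3.56, 2.74 and 9.06 TPM in LC-2/ad, below all 9 others (10.4 to 39.8 TPM), just short of the threshold (adjusted p 0.0509). DUSP6, another ERK phosphatase, stood at 45.7, 108 and 192 TPM in LC-2/ad, in each state above NCI-H2009 (30.4, 14.7 and 75.1 TPM) and below NCI-H2228 and HCC4006 (at least 154 TPM). The ERK inhibitors SPRED1 and SPRED2 stood at 2.83, 1.69 and 3.10 and at 10.8, 11.8 and 17.3 TPM in LC-2/ad, and the ETS factor ETV5 at 16.95, 22.5 and 32.9 TPM, against 1.86 to 18.2, 12.7 to 28.5 and 27.97 to 213 TPM in the others. Among AP-1 genes, FOS, which ERK also induces, stood at 14.8, 16.3 and 32.03 TPM in LC-2/ad and 2.10 to 18.8 TPM in the others, and was not called. EGR2, EGR3 and NAB1 were not set apart either, with NAB1 at 2.04, 1.74 and 2.81 TPM in LC-2/ad and 0.963 to 4.75 TPM in the others.

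**Figure D1:**
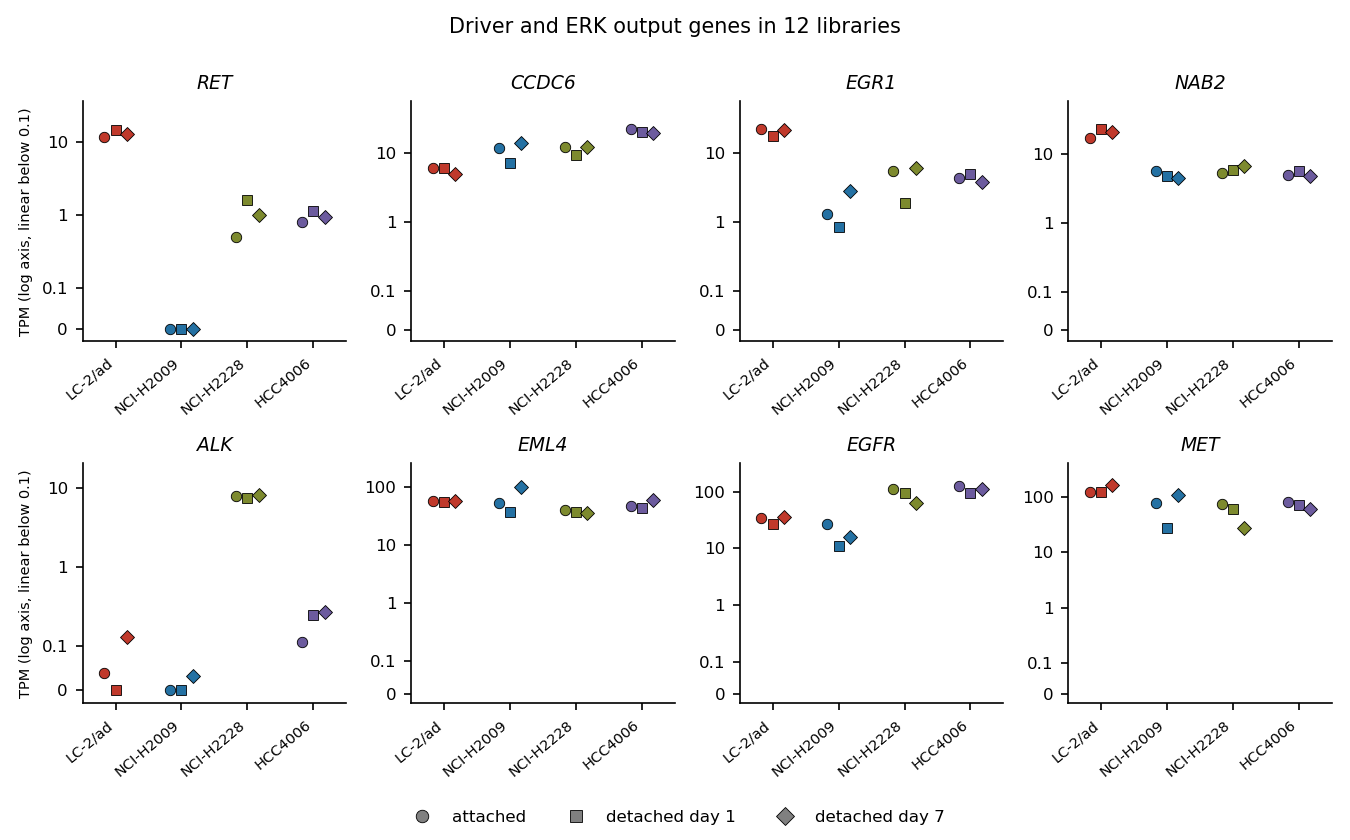
Levels in TPM (log axis, linear below 0.1) of 8 genes in the 12 libraries. Colours and positions mark the lines, symbols the states. RET, EGR1 and NAB2 are highest in all 3 LC-2/ad libraries and CCDC6 is lowest, while ALK is high in NCI-H2228.

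The promoters of EGR1 and NAB2 are shown because the 2 genes stood out together. The windows, from RefSeq on GRCh38.p14, are chr5:138465229-138465528 on the plus strand and chr12:57088864-57089163 on the plus strand, with CArG boxes, the motif of serum response factor, and the EGR motifs GCGTGGGCG and GCGGGGGCG in capitals on either strand.
EGR1: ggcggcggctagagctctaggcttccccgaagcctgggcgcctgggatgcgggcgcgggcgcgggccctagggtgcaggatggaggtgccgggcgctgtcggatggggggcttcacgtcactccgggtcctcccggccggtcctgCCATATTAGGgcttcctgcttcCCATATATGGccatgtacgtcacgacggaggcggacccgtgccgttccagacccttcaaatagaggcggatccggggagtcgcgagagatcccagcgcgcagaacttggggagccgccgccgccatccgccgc
NAB2: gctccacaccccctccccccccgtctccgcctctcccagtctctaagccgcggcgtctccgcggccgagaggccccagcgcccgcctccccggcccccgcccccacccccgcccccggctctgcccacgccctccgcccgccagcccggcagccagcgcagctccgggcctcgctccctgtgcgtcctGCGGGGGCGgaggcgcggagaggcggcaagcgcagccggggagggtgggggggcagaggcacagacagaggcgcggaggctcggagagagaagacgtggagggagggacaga
The EGR1 window held 2 CArG boxes and no EGR motif, and the NAB2 window held no CArG box and 1 match to GCGGGGGCG. A CArG box was found in 1.29% of 27305 promoters, GCGGGGGCG in 5.03% and GCGTGGGCG in 0.784%. The RET window also held 1 match to GCGGGGGCG and the CCDC6 window none. The motifs do not overlap in these windows, and a match is a description of the letters only.

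The lung lineage factor NKX2-1 was present in LC-2/ad at a level inside that of the other lines. GATA4, a factor of foregut and heart, was higher in LC-2/ad and at trace levels in the others. NKX2-1 stood at 27.2, 42.2 and 51.8 TPM in LC-2/ad and 26.5 to 107 TPM in the others (adjusted p 1). FOXA1, a pioneer factor of foregut epithelium, stood at 35.3, 28.5 and 34.7 TPM in LC-2/ad and 20.1 to 131 TPM in the others. GATA4, on chromosome 8 from 11676959 to 11760002, stood at 4.04, 3.10 and 3.75 TPM in LC-2/ad and at 0.022 TPM at the most in the other lines (edgeR adjusted p 0.00223), and it was the only one of 29 lineage factors called. Its relative GATA6 stood at 13.2, 5.90 and 4.07 TPM in LC-2/ad and 0.023 to 7.57 TPM in the others, and was not called (adjusted p 0.755).

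Besides GATA4, 4 lineage factors lay above all 9 other libraries in LC-2/ad without passing: GRHL2, ELF5, CDX2 and PDX1. GRHL2, a grainyhead factor that maintains epithelial junction genes, stood at 26.98, 17.5 and 23.1 TPM in LC-2/ad, above all 9 others (0.232 to 11.99 TPM), with a log2 difference of 1.35 ± 0.33 to HCC4006 and an adjusted p of 0.0791. ELF5, an ETS factor of glandular epithelium, stood at 0.894, 0.791 and 1.04 TPM in LC-2/ad against at most 0.539 TPM in the others (adjusted p 0.487). KLF5, a Krüppel-like factor, stood at 79.7, 92.8 and 83.02 TPM in LC-2/ad and 25.1 to 94.9 TPM in the others, which overlap. The median of the 29 lineage factors was 0.93, with 20 above 0.

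No marker of alveolar type 2 cells was called. The list had a median log2 difference of -2.27, with 10 of 14 tested members below the mean of the other lines and 0 with all 3 LC-2/ad libraries below the 9 others; 2 had an unadjusted p under 0.05 in edgeR, DESeq2 called 1 and limma none at either pseudocount. ABCA3, a lipid transporter of lamellar bodies, came closest, at 0.564, 0.536 and 2.68 TPM in LC-2/ad against 1.003, 2.38 and 7.24 TPM in NCI-H2009, 16.2, 14.7 and 20.1 TPM in NCI-H2228 and 12.4, 8.30 and 12.4 TPM in HCC4006 (log2 difference -2.28 ± 0.51 to NCI-H2009, adjusted p 0.0545). LC-2/ad was the lowest line in each state, and its day 7 library lay above the attached and day 1 libraries of NCI-H2009. SLC34A2, the phosphate transporter of type 2 cells, stood at 0.757, 1.28 and 25.6 TPM in LC-2/ad, against 0.483, 20.01 and 372 TPM in NCI-H2009, 575, 2677 and 395 TPM in NCI-H2228 and 655, 936 and 2289.98 TPM in HCC4006. LC-2/ad and NCI-H2009 were low in the attached state and NCI-H2228 and HCC4006 were high in every state. The aspartic protease NAPSA stood at 1.90, 4.29 and 26.1 TPM in LC-2/ad and 2.08 to 705 TPM in the others, with the same 2 lines low. The surfactant genes themselves were scarce: SFTPB stood at 0, 0 and 4.68 TPM in LC-2/ad, and SFTPC and SFTPA1 were at 0 in its 3 libraries. SFTPA1 and SFTPA2 are near-identical copies and their values are uncertain.

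Of the alveolar type 1 list, CLIC5, a chloride channel protein of the apical cytoskeleton, was higher in LC-2/ad, at 3.86, 4.18 and 13.7 TPM against at most 0.462 TPM (edgeR adjusted p 0.0261). It was the only one of 10 called, and 8 of 10 were above 0 with a median of 1.59. CAV2, a caveolin, stood at 227, 71.8 and 98.9 TPM in LC-2/ad against 143, 30.7 and 23.5 TPM in NCI-H2009, 72.2, 17.2 and 30.4 TPM in NCI-H2228 and 68.3, 46.3 and 32.6 TPM in HCC4006, the highest line in each state (adjusted p 0.0877). The defining type 1 genes were near 0, with AGER at 0.13, 0.148 and 0.124 TPM in LC-2/ad and PDPN at 0 in all 12 libraries.

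Airway, basal, neuroendocrine and gut lists gave no call in LC-2/ad. None of 21 secretory and goblet markers was called in edgeR, 1 had an unadjusted p under 0.05, and DESeq2 and limma called none. In the difference to the mean of the other lines, 10 of the 21 were above 0 and 11 below, with a median of -0.55. The membrane mucin MUC4 came closest to a call, at 11.4, 17.6 and 28.9 TPM in LC-2/ad and 0 to 11.8 TPM in the others (edgeR adjusted p 0.215). CEACAM6 leaned the other way, at 17.8, 57.2 and 783 TPM in LC-2/ad and 48.7 to 8850 TPM in the others. Of 9 ciliated markers none was called in edgeR, 1 had an unadjusted p under 0.05, DESeq2 called 1 and limma none; TPPP3, a tubulin-binding protein, stood at 0.329, 1.33 and 1.59 TPM in LC-2/ad, below all 9 others (1.93 to 77.2 TPM). Of 15 basal and squamous markers none was called in edgeR, 2 had an unadjusted p under 0.05, DESeq2 called 1 and limma none. In the difference to the mean of the other lines, 11 of the 15 were above 0 and 4 below. Their median was 0.71 with lines at 0 set at their floor. The keratin KRT17 stood at 33.5, 14.3 and 46.7 TPM in LC-2/ad and 0 to 20.5 TPM in the others, which overlap. Lower were the laminin receptor subunit ITGA6, at 13.6, 13.6 and 10.2 TPM in LC-2/ad against 15.8 to 88.6 TPM (edgeR adjusted p 0.0984), and the basal factor TP63, at 0.346, 0.116 and 0.034 TPM against 0.351 to 7.84 TPM. None of 9 neuroendocrine markers was called in edgeR, with 1 at an unadjusted p under 0.05 and none by DESeq2 or limma. None of 10 gut and liver markers was called or had an unadjusted p under 0.05, and neither DESeq2 nor limma called one.

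Among genes of epithelial and mesenchymal state, VIM and TWIST2 were lower and KRT23 higher in LC-2/ad than in each other line, and these calls were lost in at most 2 of 24 alternative settings. LOX was called lower and CDH2 higher, but these calls were lost in 17 and 9 of the 24. VIM, the intermediate filament of mesenchymal cells, on chromosome 10 from 17228241 to 17237593, stood at 14.1, 12.3 and 15.6 TPM in LC-2/ad. It stood at 70.1, 78.6 and 62.96 TPM in NCI-H2009, 1190.4, 603 and 719 TPM in NCI-H2228 and 116, 111 and 88.4 TPM in HCC4006. All 3 LC-2/ad libraries lay below the 9 others, by a log2 difference of -2.24 ± 0.28 to NCI-H2009, the next lowest line (edgeR adjusted p 0.00403). Of 31 mesenchymal genes tested, 3 were lower and 1 was higher, or 12.9% called, against 1.98% of all genes tested. With lines at 0 set at their floor, 20 of the 31 were below 0, with a median of -0.80. Of all 18494 genes tested, 9393 were above 0.

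TWIST2 and LOX were the other lower members. TWIST2, a factor that represses epithelial genes, stood at 0.91, 0.991 and 0.954 TPM in LC-2/ad and 3.83 to 21.6 TPM in the others (log2 difference -2.64 ± 0.43, adjusted p 0.0134). LOX, a lysyl oxidase that crosslinks collagen, stood at 0.879, 0.289 and 0.168 TPM in LC-2/ad against 1.12 to 192 TPM (adjusted p 0.0473), with each LC-2/ad library below each other one; this call was lost in 17 of 24 alternatives, the leaving out of any LC-2/ad library among them. The zinc finger repressors ZEB1 and ZEB2 did not set LC-2/ad apart, since they were low in NCI-H2009 and HCC4006 as well: ZEB1 stood at 0.487, 0.324 and 0.027 TPM in LC-2/ad and 14.9, 11.2 and 13.9 TPM in NCI-H2228.

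Against this, the mesenchymal cadherin CDH2 was higher in LC-2/ad. CDH2, N-cadherin, stood at 26.1, 9.49 and 4.59 TPM in LC-2/ad, against 2.01, 0.114 and 0.308 TPM in NCI-H2009, 0.076, 0.06 and 0.037 TPM in NCI-H2228 and 3.68, 1.58 and 0.987 TPM in HCC4006. All 3 LC-2/ad libraries were above the 9 others, and in each state LC-2/ad was the highest line (log2 difference 2.56 ± 0.47 to HCC4006, edgeR adjusted p 0.0253). The call was lost in 9 of 24 alternatives, among them the fit without state as a block. CDH1, E-cadherin, stood at 95.2, 68.3 and 213 TPM in LC-2/ad, between NCI-H2009 (259.6, 325 and 685 TPM) and NCI-H2228 (20.2, 20.6 and 16.2 TPM) and overlapping with HCC4006 (112, 100.4 and 125 TPM).

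Junction and epithelial identity genes leaned upward against the mean of the other lines, without a call. Of 38 tested members 31 were above 0, with a median of 0.60, against 9393 of all 18494 genes tested. None was called in edgeR, 5 had an unadjusted p under 0.05, DESeq2 called 1 and limma none. Summed over the list, LC-2/ad stood at 6818, 7697 and 10788 TPM and NCI-H2009 at 6702, 11681 and 17188 TPM. HCC4006 stood at 6228, 6320 and 7298 TPM and NCI-H2228 was lowest, at 2070, 2858 and 2108 TPM. The desmosomal genes PKP3 and DSG2 stood above all 9 other libraries, PKP3 at 208, 195 and 221 TPM in LC-2/ad against at most 186 TPM and DSG2 at 68.3, 63.2 and 67.8 TPM against at most 50.6 TPM, with adjusted p-values of 0.116 and 0.198. DSC2, a desmosomal cadherin, stood at 12.8, 15.2 and 14.7 TPM against at most 9.85 TPM (adjusted p 0.205). CLDN4, a tight junction claudin, stood at 775, 919 and 1735 TPM in LC-2/ad and 143 to 1058 TPM in the others.

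All 10 keratins of simple epithelium were above 0 in LC-2/ad, with a median of 1.46 when lines at 0 were set at their floor. KRT23 was the one called, at 7.17, 13.2 and 27.7 TPM in LC-2/ad and at most 0.121 TPM elsewhere (edgeR adjusted p 0.0024). The main pair KRT8 and KRT18 stood at 2887, 1609 and 3509 TPM and at 3872, 1768 and 4442 TPM in LC-2/ad, against 549.6 to 2156 and 952 to 3009.9 TPM. LC-2/ad was the highest line for both within each state, but the ranges overlap and neither was called. KRT81 and KRT86, hair-type keratins that are close copies and may share reads, were above all 9 others and not called.

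**Figure D2:**
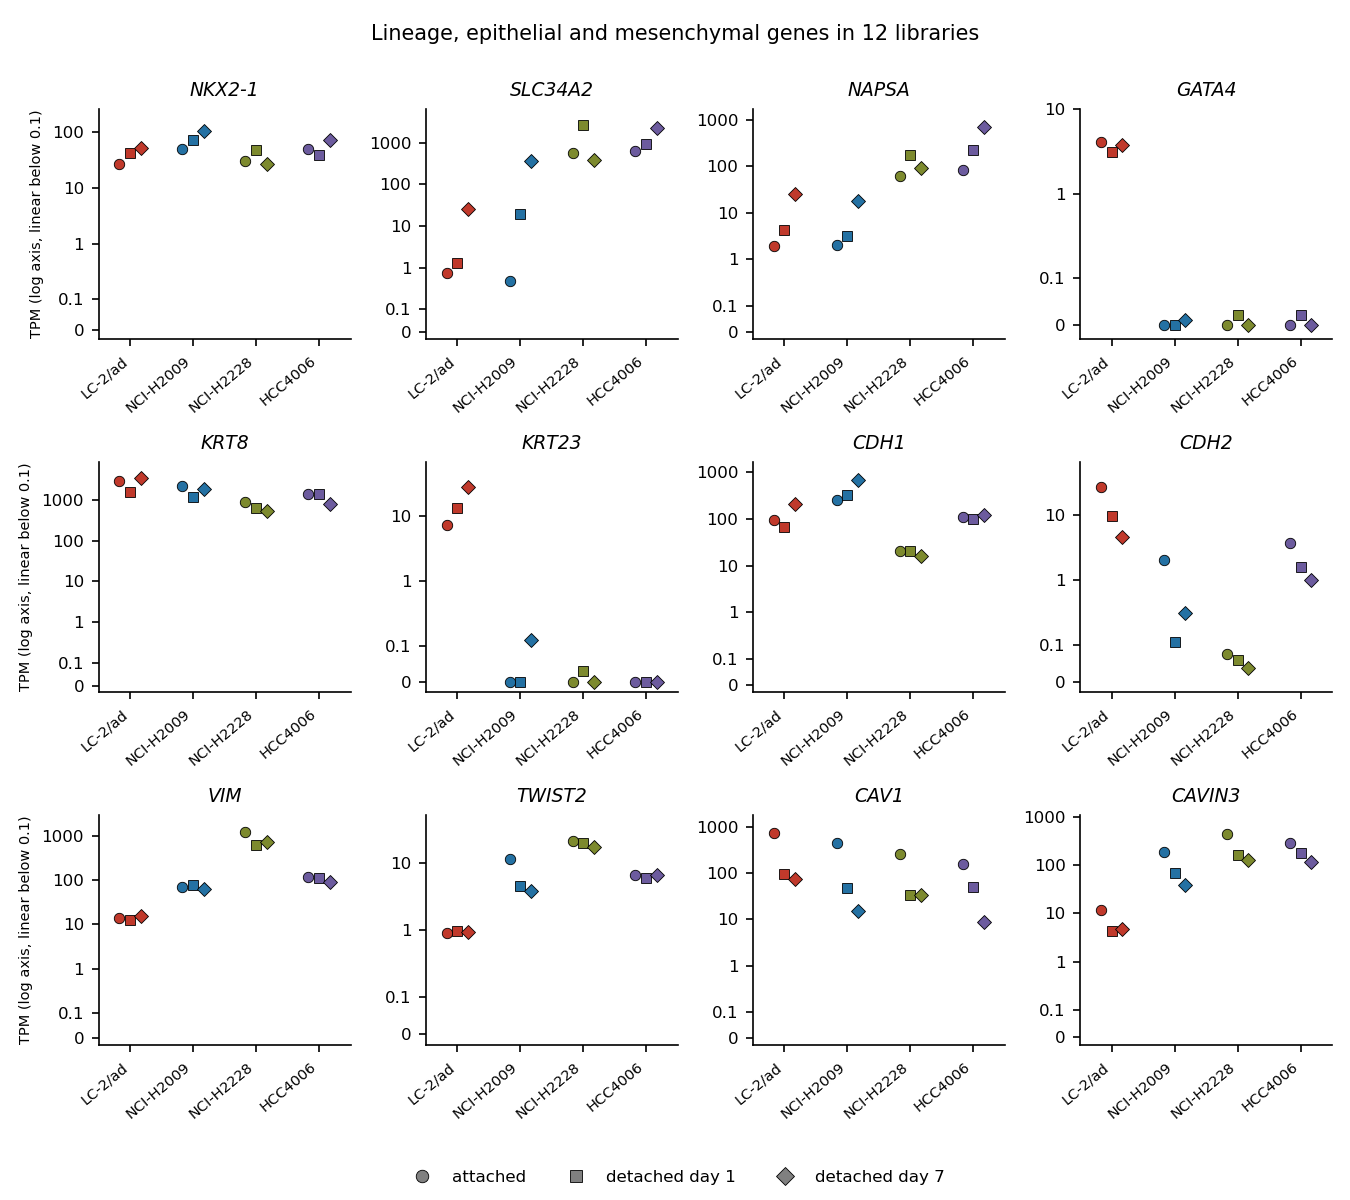
Levels in TPM (log axis, linear below 0.1) of 12 lineage, epithelial and mesenchymal genes in the 12 libraries, coloured by line, with symbols for the states. GATA4, KRT23 and CDH2 are highest in LC-2/ad, VIM, TWIST2 and CAVIN3 are lowest, and NKX2-1 and CDH1 overlap with other lines.

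Among caveola genes, the coat protein CAVIN3 was lower in LC-2/ad while the caveolins were not called. CAVIN3 stood at 12.04, 4.33 and 4.79 TPM in LC-2/ad, against 187, 68.9 and 38.2 TPM in NCI-H2009, 439.98, 163 and 124 TPM in NCI-H2228 and 286, 177 and 118 TPM in HCC4006. Each LC-2/ad library was below each of the 9 others (log2 difference -3.53 ± 0.31 to NCI-H2009, edgeR adjusted p 0.000605). CAV1, the main caveolin, stood at 737, 94.5 and 76.3 TPM in LC-2/ad against 452, 47.7 and 15.3 TPM in NCI-H2009, 263, 34.3 and 34.4 TPM in NCI-H2228 and 159, 50.9 and 8.90 TPM in HCC4006, the highest line in each state but not called (adjusted p 0.36). CAVIN1, the other main coat protein, stood at 71.5, 22.1 and 26.3 TPM in LC-2/ad and 17.9 to 137 TPM in the others, and CAVIN3 was the only one of 8 tested caveola genes called. This list was chosen after its values were seen.

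Beyond the lists, the protein-coding genes ranked by the distance to the nearest line, among those with at least 10 TPM in each LC-2/ad library, were led by LUM, which codes for the matrix proteoglycan lumican. LUM stood at 43.4, 23.9 and 11.5 TPM in LC-2/ad and at most at 0.328 TPM in the others (edgeR adjusted p 0.00976). Of 5 tested fibroblast markers LUM was the only one called, and its defining genes DCN and COL3A1 stood at 0.036, 0.079 and 0 TPM and 0.047, 0.054 and 0.039 TPM in LC-2/ad. MAG, a glycoprotein of myelin, stood at 17.7, 20 and 27.4 TPM against at most 0.76 TPM. VGLL1, a cofactor of the TEAD factors, stood at 78.99, 17.7 and 77.2 TPM against at most 1.21 TPM, while no TEAD gene was called. The MAG and VGLL1 calls were lost in 7 and 6 of 24 alternatives, the leaving out of any LC-2/ad library among them.

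The neuropeptide gene NMU stood at 666, 438 and 252 TPM in LC-2/ad against 2.15 to 21.5 TPM (log2 difference 5.04 ± 0.54 to NCI-H2009, edgeR adjusted p 0.00204). RARRES2, which codes for chemerin, stood at 120.3, 186 and 159 TPM against at most 15.5 TPM (4.77 ± 0.72). The protease KLK6 stood at 463, 459 and 518 TPM against 0.394 to 151 TPM (3.28 ± 0.64 to HCC4006), a call lost in 11 of 24 alternatives, among them the fit without state as a block. IGFBP7, a secreted binding protein, stood at 499, 381 and 51.8 TPM against 5.32 to 90.3 TPM; its day 7 library lay below the attached and day 1 libraries of HCC4006, and LC-2/ad was the highest line within each state (2.25 ± 0.34). The membrane-anchored LY6D stood at 82.97, 73.6 and 41.9 TPM against at most 3.84 TPM.

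Placental alkaline phosphatase (ALPP) stood at 70.6, 26.98 and 90.8 TPM in LC-2/ad and at most at 2.62 TPM in the others, and its neighbour ALPG at 9.84, 12.1 and 14.6 TPM against at most 0.428 TPM (adjusted p 0.0128 and 0.0263). They are close copies and may share reads. The calcium-binding protein S100A4 stood at 964, 2586 and 1531 TPM in LC-2/ad against 26.8 to 277 TPM (2.96 ± 0.42 to NCI-H2009), the only one of 13 tested S100 genes called. ACTR3C, an actin-related protein, stood at 50.1, 34.7 and 55.2 TPM against 4.12 to 12.04 TPM. GSTT2B, a glutathione transferase with a near-identical copy, stood at 45.3, 40.1 and 31.4 TPM against 4.78 to 10.5 TPM, and AL139300.1 at 27.3, 15.1 and 31.3 TPM against 0.691 to 7.97 TPM. The adjusted p-values of these genes lay between 0.00204 for NMU and 0.0331 for KLK6.

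Among long noncoding RNAs, H19 gave the smallest adjusted p of those named. H19, an imprinted transcript on chromosome 11 from 1995176 to 2001470, stood at 468, 481 and 117 TPM in LC-2/ad and did not exceed 0.553 TPM in the 9 others (edgeR adjusted p 0.000107). IGF2, the growth factor gene beside it that is imprinted the other way, stood at 0.035, 0.352 and 0.159 TPM in LC-2/ad and 0 to 0.336 TPM elsewhere. Of 17 tested imprinted genes, a list chosen after values were seen, H19 was higher and PLAGL1, a zinc finger factor, lower. PLAGL1 stood at 0, 0.088 and 0 TPM in LC-2/ad and 1.88 to 7.41 TPM in the others (adjusted p 0.00646). APTR stood at 16.4, 26.7 and 18.3 TPM in LC-2/ad against 2.01 to 8.74 TPM, and its call was lost in 10 of 24 alternatives. SNHG18, a snoRNA host transcript, was lower, at 0.82, 1.33 and 0.502 TPM against 11.2 to 75.8 TPM (-5.05 ± 0.44 to HCC4006).

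**Figure D3:**
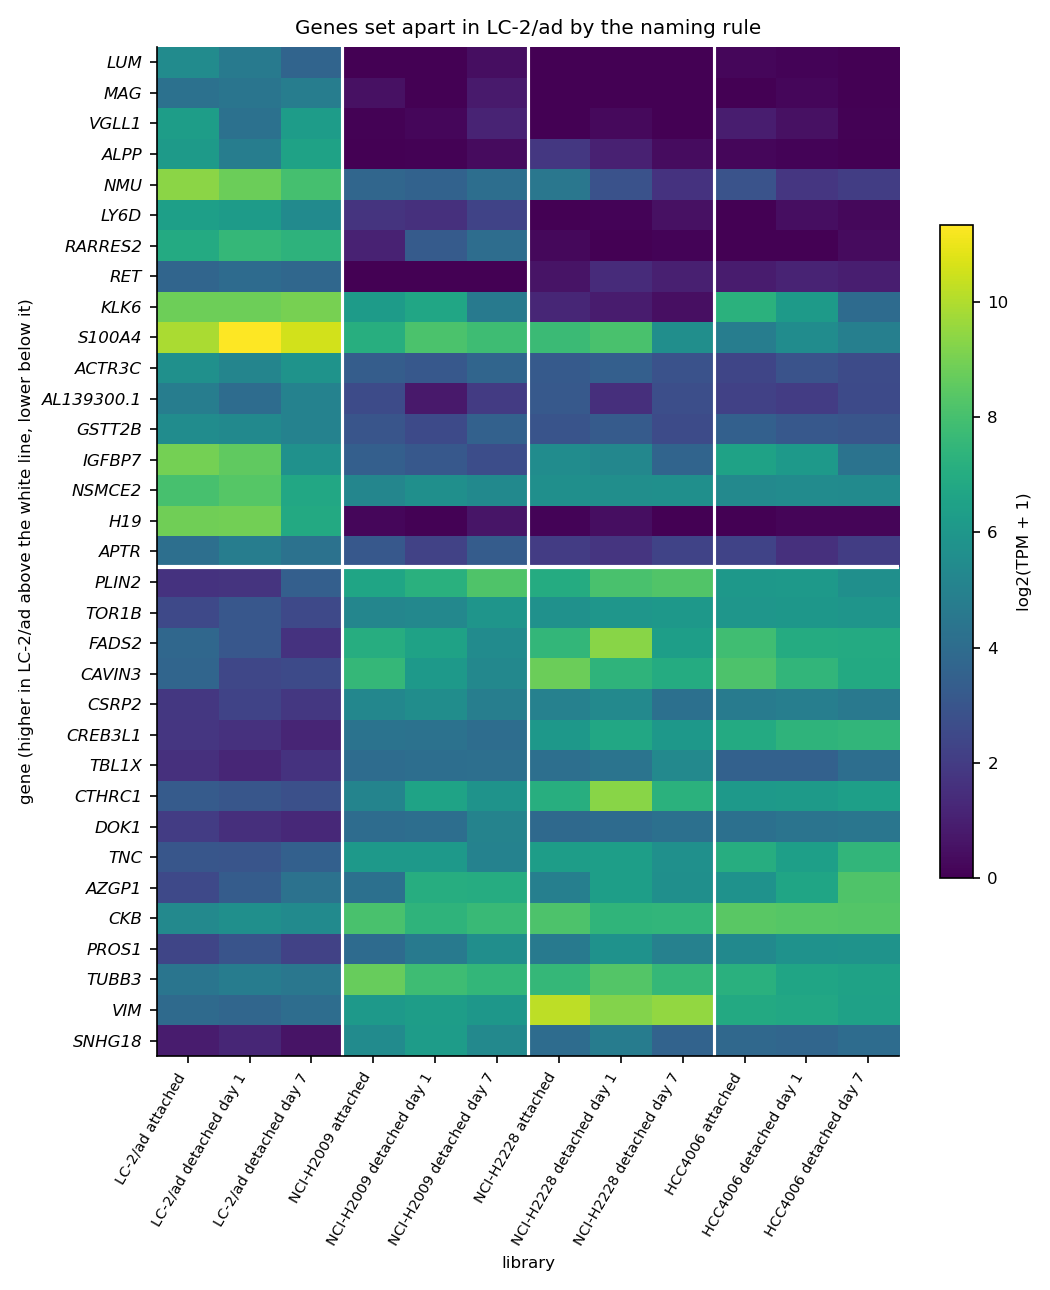
Colours give log2(TPM + 1) of the genes named by rank in the 12 libraries, with LC-2/ad in the first 3 columns. The 17 genes above the white line are higher in LC-2/ad and the 15 protein-coding genes and SNHG18 below it are lower; RET keeps nearly the same shade in all 3 states.

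The genes that were lower in LC-2/ad, ranked among those with at least 10 TPM in each of the 9 other libraries, were led by PLIN2, the coat protein of lipid droplets. PLIN2 stood at 2.13, 2.25 and 9.64 TPM in LC-2/ad, against 100.3, 147 and 297 TPM in NCI-H2009, 126, 270.3 and 302 TPM in NCI-H2228 and 65.2, 67.7 and 49.4 TPM in HCC4006 (log2 difference -4.02 ± 0.47, edgeR adjusted p 0.00301). FADS2, a fatty acid desaturase, stood at 12.8, 7.45 and 2.21 TPM against 43.9 to 639 TPM (-3.63 ± 0.60 to NCI-H2009), and its neighbour FADS1 at 76.7, 49.2 and 27.4 TPM against 63.1 to 522 TPM, not called. PLIN3, the more widely used droplet coat, stood at 135, 115 and 143 TPM against 168 to 431 TPM and was not called. PLIN2 and FADS2 were the only ones of 11 tested lipid droplet and desaturase genes called, a list chosen after values were seen.

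TNC, the matrix protein tenascin C, stood at 7.28, 6.94 and 10.3 TPM in LC-2/ad against 31.98 to 174 TPM, and CTHRC1, a secreted collagen-associated protein, at 8.40, 7.14 and 5.83 TPM against 33.1 to 647 TPM. TUBB3, the neuronal beta tubulin, stood at 20.5, 25.9 and 21.5 TPM against 92.2 to 414 TPM (-2.28 ± 0.32 to HCC4006). CSRP2, a LIM domain protein, stood at 2.53, 3.81 and 2.59 TPM against 17.3 to 46.3 TPM. DOK1, an adaptor that docks on tyrosine kinases, stood at 2.99, 1.91 and 1.48 TPM against 13.9 to 32.4 TPM (-2.72 ± 0.36 to NCI-H2228, edgeR adjusted p 0.00558). PROS1, protein S, a ligand of the TAM receptors, stood at 4.21, 6.59 and 3.73 TPM against 14.4 to 55.3 TPM.

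TOR1B, a torsin of the endoplasmic reticulum, stood at 4.70, 7.47 and 4.68 TPM in LC-2/ad against 36.2, 37.6 and 58.4 TPM in NCI-H2009, 51.5, 61.7 and 64.4 TPM in NCI-H2228 and 61.9, 62.8 and 59.7 TPM in HCC4006 (edgeR adjusted p 0.000276). CKB, the brain-type creatine kinase, stood at 38.95, 48.5 and 41.997 TPM against 166 to 341 TPM (-2.36 ± 0.22 to NCI-H2228). CREB3L1, a membrane-bound factor of secretory cells, stood at 2.42, 2.02 and 1.29 TPM against 15.7 to 174 TPM, and TBL1X, a corepressor subunit, at 1.96, 1.36 and 2.14 TPM against 10.4 to 39.8 TPM. AZGP1, a secreted zinc-binding glycoprotein, stood at 4.58, 8.86 and 18.4 TPM against 17.3 to 297 TPM, with its day 7 library above the attached library of NCI-H2009, and its call was lost in 11 of 24 alternatives. For the other 14 of these 15 lower protein-coding genes, all 3 LC-2/ad libraries were below the 9 others.

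Of 30 interferon-stimulated genes 2 were lower (6.67%), against 1.47% of all genes tested. In the difference to the mean of the other lines 21 were below 0, with a median of -0.73, while 9393 of all 18494 genes tested were above 0. Summed over the list, LC-2/ad stood at 3991, 4865 and 2243 TPM and NCI-H2009 at 2267, 3248 and 2669 TPM. NCI-H2228 stood at 4130, 7799 and 4295 TPM and HCC4006 at 6942, 9413 and 11067 TPM. BST2, tetherin, stood at 114, 172 and 109 TPM in LC-2/ad against 305 to 748 TPM (log2 difference -1.86 ± 0.27 to HCC4006, edgeR adjusted p 0.00734), and OASL at 0.906, 1.27 and 1.46 TPM against 3.02 to 32.8 TPM (adjusted p 0.0418). The OASL call was lost in 13 of 24 alternatives, including without any 1 LC-2/ad library, and the BST2 call in 1. ISG15 stood at 107, 147 and 133 TPM against 249 to 1283 TPM, below all others and not called, while the interferon regulatory factors IRF1 and IRF7 lay above all others, IRF1 at 125, 126 and 193 TPM against 30.9 to 112 TPM, and were not called either. Of 14 MHC class II genes none was called in edgeR, 1 had an unadjusted p under 0.05 and DESeq2 and limma called none; the invariant chain CD74 stood at 68.9, 135 and 138 TPM in LC-2/ad, close to NCI-H2009 (46.7, 185 and 283 TPM) and below NCI-H2228 and HCC4006 (at least 789 TPM). Of 17 MHC class I and peptide loading genes none was called, 2 had an unadjusted p under 0.05, and DESeq2 and limma called none.

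Cancer-testis antigens, genes of the germline that tumours can express, split by member. CT83 was at 0 in the 3 LC-2/ad libraries and at 23.96, 52.4 and 75.4 TPM in NCI-H2009, 1.005, 3.995 and 2.80 TPM in NCI-H2228 and 50.6, 62.8 and 65.5 TPM in HCC4006, at least 4.68-fold lower in depth-scaled counts than the lowest line (edgeR adjusted p 0.009). MAGEA6 stood at 116, 94.97 and 111 TPM in LC-2/ad and 84.03, 48.7 and 102 TPM in NCI-H2009, and did not exceed 0.241 TPM elsewhere. CT83 was the only one of 11 tested members called.

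**Figure D4:**
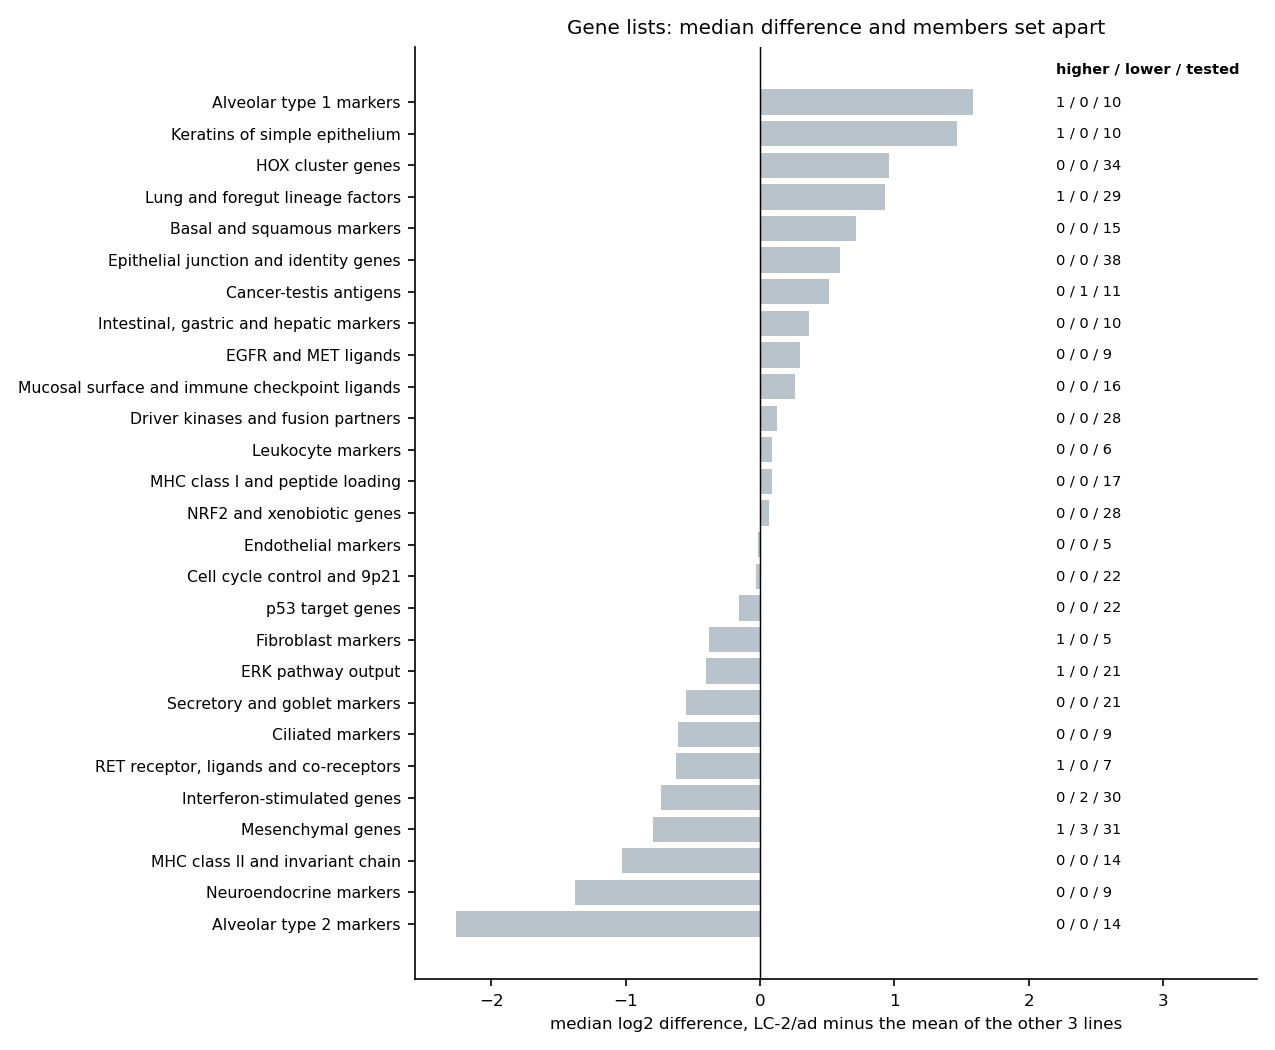
Bars give the median log2 difference of each gene list, LC-2/ad minus the mean of the other 3 lines, with lines at 0 set at a floor of 3 counts. The numbers beside them count members set apart as higher, as lower and tested. Of the 27 lists shown, alveolar type 2 markers have the lowest median, -2.27, with none of 14 called, and simple keratins and alveolar type 1 markers have medians of 1.46 and 1.59 with 1 of 10 called in each.

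By position, the lowest values of LC-2/ad were on chromosome 19. Windows of 10 Mb with at least 20 tested protein-coding genes numbered 250. Their median log2 difference to the mean of the other lines ran from -4.37 to 0.90, with quartiles at -0.21 and 0.25. The lowest was the window from 20000001 to 30000000 on chromosome 19, where 14 of 33 genes were lower and none higher. All 14 code for zinc finger proteins, and most genes of this cluster are KRAB repressors of transposable elements. The median of that window stayed between -4.66 and -4.29 when any 1 of the other lines was left out or DESeq2 size factors were used.

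The zinc finger genes that start at 19 to 24 Mb of chromosome 19 were described together, a range chosen after values were seen. Of 32 tested ZNF genes there, 17 were lower (53.1%), all 32 were below 0, and the median was -4.38 with lines at 0 set at their floor. On the rest of chromosome 19, 4 of 209 tested ZNF genes were lower (1.91%) with a median of -0.12, and on other chromosomes 5 of 244 (2.05%) with a median of -0.03. ZNF626 was at 0 in the 3 LC-2/ad libraries, against 18.4, 22.5 and 30.9 TPM in NCI-H2009, 19.2, 18.02 and 18.6 TPM in NCI-H2228 and 3.81, 5.32 and 3.67 TPM in HCC4006 (at least 29.6-fold lower in depth-scaled counts, edgeR adjusted p 0.000605). ZNF43 was likewise at 0 in LC-2/ad and at 1.07 to 7.13 TPM in the others (at least 90.8-fold lower), and ZNF429 at 0 and at 2.34 to 15.3 TPM (at least 83.1-fold lower). ZNF91, which is known to silence SVA retroelements, stood at 0.494, 0.107 and 0.492 TPM in LC-2/ad and 2.61 to 19.1 TPM in the others (adjusted p 0.00678).

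The cluster was not silent throughout. ZNF14 stood at 2.87, 2.32 and 2.24 TPM in LC-2/ad and 1.36 to 11.5 TPM in the others, ZNF714 at 1.99, 1.42 and 2.25 TPM against 2.44 to 17.6 TPM, and ZNF101 at 1.44, 1.44 and 1.46 TPM against 2.59 to 8.03 TPM, none of them called. Some members, such as ZNF208, were at or near 0 in NCI-H2228 and HCC4006 as well. These genes are close relatives and may share reads, so single values are uncertain. Outside the cluster, ZNF677, further along chromosome 19, stood at 0, 0 and 0.013 TPM in LC-2/ad against 6.52 to 31.8 TPM (adjusted p 0.000238).

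The promoters of 3 silent members are shown to let their likeness be seen. They lie at chr19:20661522-20661821 on the minus strand, chr19:21505352-21505651 on the plus strand and chr19:21836133-21836432 on the minus strand in RefSeq on GRCh38.p14, and the capitals mark TTATCCAATCAGG, the longest stretch with a CCAAT box that the 3 share, chosen after they were compared.
ZNF626: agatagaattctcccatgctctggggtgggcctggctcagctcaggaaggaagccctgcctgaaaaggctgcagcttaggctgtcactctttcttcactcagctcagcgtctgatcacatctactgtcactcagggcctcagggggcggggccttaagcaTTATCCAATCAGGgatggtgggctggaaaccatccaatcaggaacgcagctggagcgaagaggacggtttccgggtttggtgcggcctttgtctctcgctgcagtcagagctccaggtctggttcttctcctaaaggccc
ZNF429: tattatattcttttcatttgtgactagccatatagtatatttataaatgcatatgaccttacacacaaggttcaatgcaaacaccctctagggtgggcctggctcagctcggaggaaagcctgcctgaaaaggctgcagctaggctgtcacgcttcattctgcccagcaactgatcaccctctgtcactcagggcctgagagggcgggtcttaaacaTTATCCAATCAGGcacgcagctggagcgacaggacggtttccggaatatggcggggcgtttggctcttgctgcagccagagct
ZNF43: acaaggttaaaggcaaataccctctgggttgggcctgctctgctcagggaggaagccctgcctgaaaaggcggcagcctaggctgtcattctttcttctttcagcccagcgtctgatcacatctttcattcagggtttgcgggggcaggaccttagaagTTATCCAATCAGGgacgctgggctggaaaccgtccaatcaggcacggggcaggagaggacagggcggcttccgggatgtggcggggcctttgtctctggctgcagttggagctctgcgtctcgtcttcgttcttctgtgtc
Of the 32 tested cluster genes 27 had a promoter in the table, and pairs of them matched, after global alignment, at a median of 77.7% of the 300 bases. The median was 55% for pairs of ZNF promoters elsewhere on chromosome 19, taken from only the first listed of the 186 there. The stretch, on either strand, was in 8 of the 27, which include the 3 it was taken from, in 1 of 186 other chromosome 19 ZNF promoters and in 21 (0.0769%) of all 27305 promoters. The cluster promoters held a median of 10 CG dinucleotides, against 22 in the other ZNF promoters of the chromosome. Only 1 RefSeq start per gene was used. By the deposited coordinates ZNF429, on the plus strand, starts at 21496682, and ZNF43, on the minus strand, has its far end at 21852125. The windows shown for these genes therefore lie inside the deposited genes, and other starts were not examined.

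**Figure D5:**
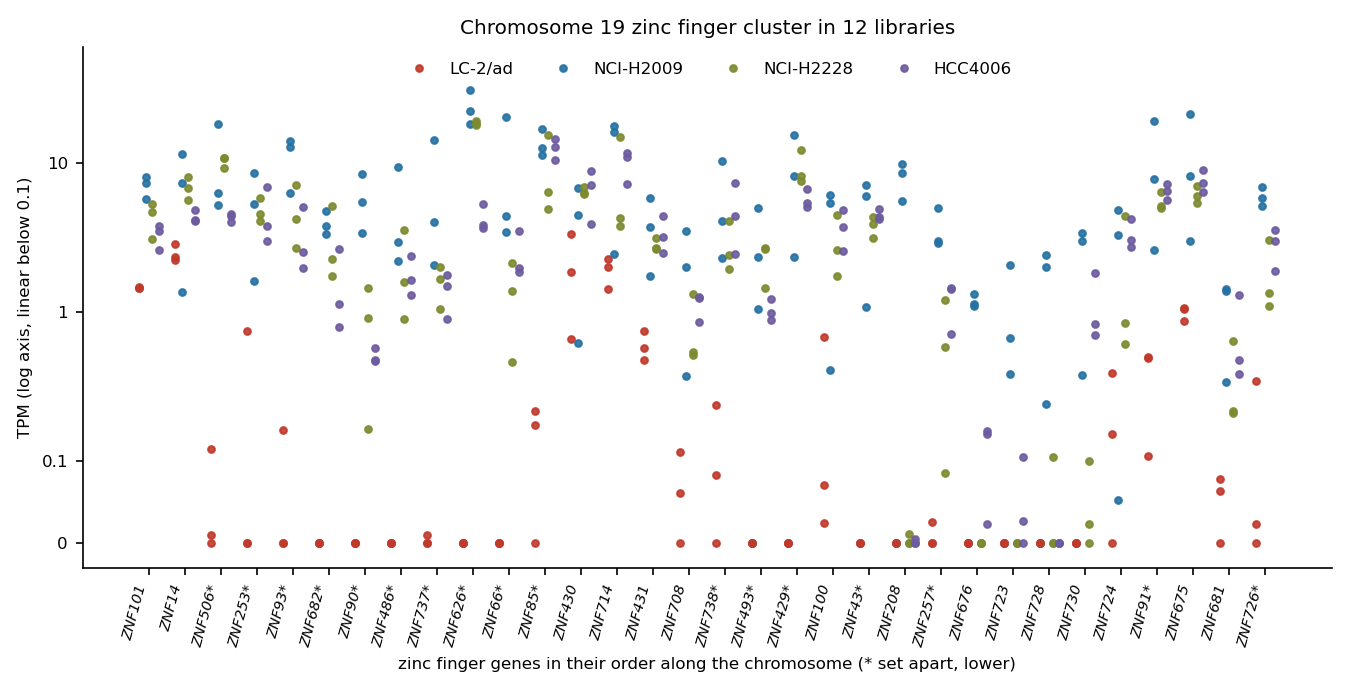
Levels in TPM (log axis, linear below 0.1) of the 32 tested zinc finger genes at 19 to 24 Mb of chromosome 19, in their order along the chromosome, with 1 point per library coloured by line. The LC-2/ad points lie at or near 0 for most genes and at the low end of the other lines for the rest; an asterisk marks the 17 genes that were lower.

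The next lowest windows were on the short arm of chromosome 9, at a median of -1.24 from 1 to 10000000 and -1.13 from 10000001 to 20000000. In the second of these, all 20 tested genes were below 0 and 3 were lower, PLIN2 among them. In the first, the median lay between -1.59 and -0.63 over the alternatives run. MTAP, an enzyme of methionine salvage that is commonly lost together with CDKN2A, was at 0 in the 3 LC-2/ad libraries and at 88.6, 48.4 and 109 TPM in NCI-H2009, 0.198, 0.046 and 0.037 TPM in NCI-H2228 and 116, 104 and 139 TPM in HCC4006. NCI-H2228 was near 0 as well, and MTAP was not called (adjusted p 0.0747). The cell cycle inhibitor CDKN2A stood at 0, 0 and 0.231 TPM and CDKN2B at 0, 0 and 0 TPM in LC-2/ad; both were near 0 also in NCI-H2228 and HCC4006, at no more than 0.829 and 0.038 TPM. Of 35 protein-coding genes within 3 Mb of MTAP, 22 were at 0 in LC-2/ad, and most of these were interferon genes at 0 in at least 7 of the 9 other libraries as well. DNA copy number was not analysed here.

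The highest windows lay side by side on chromosome 11, from 100000001 to 130000000, with medians of 0.90, 0.84 and 0.87, and the lowest of them over the alternatives run was 0.499. None of 36 tested genes was called in the first, 3 of 82 were higher and 1 lower in the second, and 2 of 53 were higher in the third. Of these calls, those of FDX1 and EI24 were lost in 14 and 11 of 24 alternatives, and those of FOXRED1 and SLC37A4 in 1 and 0. These 4 genes were chosen after values were seen. FOXRED1, an assembly factor of the respiratory chain, stood at 77.6, 86.6 and 72.3 TPM in LC-2/ad and 22.4 to 39.99 TPM in the others (log2 difference 1.47 ± 0.21, edgeR adjusted p 0.00829), and SLC37A4, the glucose 6-phosphate transporter, at 89.8, 97.7 and 104 TPM against 20.03 to 41.9 TPM. On chromosome 8, NSMCE2, a SUMO ligase of DNA repair, stood at 259.9, 329 and 111 TPM in LC-2/ad against 35.9 to 49.5 TPM, and WASHC5, a regulator of actin whose gene adjoins it, at 129, 149.6 and 66.3 TPM against 23.1 to 45.1 TPM. CYRIB, another regulator of actin, farther along the chromosome, stood at 556, 478 and 235 TPM against 62.4 to 159 TPM. These 3 were the only genes called among the 32 tested between 120000001 and 130000000 of chromosome 8, where the median was 0.21.

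Clustered protocadherins, adhesion proteins encoded in tandem arrays on chromosome 5, included several lower members. Of 51 tested, 8 were lower and 1 was higher, or 17.6% called, against 1.98% of all genes tested. Below 0 were 39 of the 51, with a median of -2.43 with lines at 0 set at their floor. Of all 18494 genes tested, 9393 were above 0. The list was chosen after values were seen. PCDHA10 stood at 0.009, 0.031 and 0.023 TPM in LC-2/ad and 3.85 to 33.1 TPM in the others (edgeR adjusted p 0.000107), and PCDHB8 at 0.141, 0 and 0.013 TPM against 7.71 to 29.5 TPM. The lower members lay in the alpha and beta arrays, except PCDHGA1. In the gamma array PCDHGB4 was higher, at 10.5, 14.4 and 17.4 TPM in LC-2/ad against 0 to 6.94 TPM (adjusted p 0.0469), and PCDHGB5 stood at 14.8, 19.2 and 26.9 TPM against 3.74 to 58.5 TPM. Alpha members share exons with each other, as gamma members do, and single values in all these arrays are uncertain.

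A protein-coding gene that was at 1 TPM or more in the 3 LC-2/ad libraries and under 0.1 TPM in the 9 others was rare. There were 5, GATA4, NR0B1, ADAMTS12, LGALS12 and OR4C6, of which edgeR called 4. NR0B1, an orphan nuclear receptor, stood at 5.77, 3.71 and 8.28 TPM in LC-2/ad and at most at 0.072 TPM elsewhere. LGALS12, a galectin, stood at 4.97, 3.29 and 1.002 TPM against at most 0.025 TPM, and the matrix protease ADAMTS12 at 2.55, 1.53 and 1.47 TPM against at most 0.076 TPM; these 2 calls were lost in 9 and 12 of 24 alternatives. The reverse pattern held for 14 genes, all of them called, among them 5 zinc finger genes of chromosome 19, 2 protocadherins, PLAGL1, CT83 and HHIPL2. HHIPL2 stood at 0, 0.015 and 0 TPM in LC-2/ad and 1.27 to 76.6 TPM in the others.

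The libraries held between 31134420 and 41882024 estimated counts. The 3 LC-2/ad libraries correlated with each other at 0.96 to 0.97 on log2 depth-scaled counts and with other lines at 0.83 to 0.87, so each of the 3 stood nearest to its own line. Mitochondrial transcripts took 1.56, 3.39 and 2.02% of TPM in LC-2/ad and 0.53 to 2.68% in the other libraries, and their part in the results was not tested. Lung and epithelial markers were present, with KRT7 at 3667, 1348 and 2759.6 TPM and EPCAM at 728, 901 and 967 TPM in LC-2/ad, while the lung marker SFTPB was at or near 0 in attached and day 1 cells. Leukocyte markers, 6 of 13 tested and none called (none by DESeq2 or limma, none at an unadjusted p under 0.05), summed to 22.2 to 34.7 TPM in LC-2/ad and 7.02 to 120.4 TPM in the other libraries, with PTPRC at 0, 0.059 and 0.111 TPM and CD3E at 0 in LC-2/ad. Fibroblast markers, 5 of 10 tested, summed to 29.995 to 66.6 TPM in LC-2/ad and 21.4 to 77.4 TPM in the other libraries, and endothelial markers, 5 of 9 tested and none called (1 at an unadjusted p under 0.05, 1 by DESeq2 and none by limma), to 4.45 to 14.4 TPM in LC-2/ad and 2.89 to 14.4 TPM in the other libraries. By the same call NCI-H2009 was set apart upward for 331 genes (1.79%) and downward for 619 (3.35%), NCI-H2228 for 423 (2.29%) and 481 (2.6%), and HCC4006 for 422 (2.28%) and 258 (1.4%), so that LC-2/ad had the fewest genes called higher.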

How the data were processed

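Total RNA of cell lines was made into libraries with the SMART-Seq v4 PLUS kit, as the labels' protocols state, with 1 library per line and state. The deposited table lists 60715 genes with TPM and an estimated count per library, per the file headers. The TPM values that the authors deposited are scaled to gene length and depth, while the deposited estimated counts carry no scaling. The submitters' processing notes name the build GRCh38; the sources used here do not give the aligner, quantifier, annotation release or strand, so overlapping, antisense and near-identical genes are uncertain.

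Estimated counts were rounded, filtered with filterByExpr by line (18494 genes kept) and scaled with TMM. A robust quasi-likelihood model of state and line was fitted in edgeR 4.0.16 (R 4.3.3), with 6 residual degrees of freedom and a biological coefficient of variation of 39.7%. LC-2/ad was tested against each other line, and the largest of the 3 p-values was adjusted over all genes. The SE restates the F statistic and is no separate measure of spread. The state labels pair libraries across lines, and state was kept as a block. Floors are 3 counts in a line's smallest library and cover counting error only, as do the totals, since PCR copies were not marked. The rule names the 15 protein-coding genes and 3 noncoding genes farthest from the nearest line in each direction, with at least 10 TPM in each LC-2/ad library or each other library, the 4 list members with the smallest p, 9 fixed genes and the 3 highest and lowest windows; fewer noncoding genes met it, and 1 fixed gene is not reported here. The members and lists were chosen with earlier results of these data known. Of 27 lists, 2 gene symbols were not matched.

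DESeq2 1.42.0, limma 3.58.1 on log2(TPM + 1) and log2(TPM + 0.1), other filters and scaling, the mean of the other lines, 1 group of other lines, and fits without the block, a line or a library were alternatives. In simulated counts of 18484 genes, changed genes, each with a mean of at least 50 counts, were set past the most extreme other line. The call found 2% of 50 genes set 2-fold past it, 60% at 4-fold, 90% at 8-fold and 86% at 16-fold. Unchanged genes were set at the mean of the other lines, which nearly precludes a call. The 0 false calls therefore do not measure the false-call rate. Promoters are from RefSeq (GRCh38.p14).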

Additional observations from a re-analysis of the deposited data

How the results depend on the processing

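The counts of genes set apart depend on the choices, since a call needs 3 contrasts to pass at once. With DESeq2 Wald tests 267 genes were higher and 596 lower, and these held 90 of the 95 and all 272 of the edgeR calls. With limma, 171 were higher and 151 lower on log2(TPM + 1), and 157 were higher on log2(TPM + 0.1). Against the mean of the other 3 lines 2750 were higher and 2334 lower, and with the other lines as 1 group 199 were higher. Without NCI-H2009, 975 were higher and 1364 lower, without NCI-H2228 268 and 449, and without HCC4006 184 higher. In these fits fewer contrasts have to pass. Without the replicate block 67 were higher and 211 lower, of which 61 and 200 were called with it; the block is the state given by the labels. Leaving out single libraries gave 21 to 125 higher and 93 to 270 lower, with the fewest where an LC-2/ad library was left out (22, 21 and 33 higher and 108, 93 and 124 lower without the attached, day 1 and day 7 library). Fewer than 63 higher or 181 lower were also called without each library of HCC4006 (36 to 41 higher, 144 to 154 lower), and without the attached (49, 144), day 1 (61, 168) and day 7 (60 higher) libraries of NCI-H2228. RET was called in every alternative except with the other lines as 1 group (log2 difference 4.23, adjusted p 0.129).

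Of 62 called genes followed over the alternatives, 27 were called in each of the 24 settings and none reversed. Calls lost in 7 of the 24 included those of MAG, CLIC5, CTHRC1 and CST6, and VGLL1 and AL139300.1 were lost in 6. Every reversal was of a gene not called, in its log2 difference to the mean of the other lines. With single libraries left out the differences ran from -0.036 to 0.607 for AFP, -0.159 to 0.679 for APOA1, -0.69 to 0.862 for FGB and -0.187 to 1.004 for CD14, below 0 in each without the attached LC-2/ad library. They ran from -0.059 to 0.67 for CDH1, below 0 without the day 7 LC-2/ad library, and from -1.4 to 0.358 for VWF, above 0 without that library (0.358), the day 7 library of NCI-H2228 (0.081) or the day 1 library of HCC4006 (0.031). With limma FGB was at -0.046 (pseudocount 1) and -0.079 (0.1). With the other lines as 1 group HLA-DQB1 was at -0.021, CD14 at -0.736, FAP at -1.87 and CDH1 at -0.511. Without NCI-H2009 CD14 was at -1.09 and VWF at 0.035, without NCI-H2228 ALK was at 0.129 and CDH1 at -0.826, and without HCC4006 VWF was at 0.095. The cause was not tested. Depth limits genes near the floor of 3 counts in a library.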

Other observations

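HOX, checkpoint, cell cycle and stress genes were described apart from the comparisons above. Of 34 tested HOX genes none was called in edgeR, 3 had an unadjusted p under 0.05 and DESeq2 and limma called none. HOXA6 stood at 18.6, 28.1 and 15.5 TPM in LC-2/ad, above all 9 others (2.03 to 10.2 TPM), while HOXA7, the next gene in the array, stood at 0.086, 0.354 and 0.149 TPM in LC-2/ad, against 21.7, 8.94 and 14.1 TPM in NCI-H2009, 0.587, 0.376 and 0.322 TPM in NCI-H2228 and 3.19, 2.42 and 3.47 TPM in HCC4006. CD274, the checkpoint ligand PD-L1, stood at 2.05, 2.56 and 2.95 TPM in LC-2/ad and 2.74 to 34.5 TPM in the others (adjusted p 0.548). None of the 16 surface and checkpoint genes on the list was called or had an unadjusted p under 0.05, and DESeq2 and limma called none. FOLR1, the folate receptor, stood at 55.4, 113 and 94.2 TPM in LC-2/ad and 0.531 to 65.1 TPM in the others.

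The cysteine protease inhibitor CST6 was higher in LC-2/ad, at 2814, 3866 and 897 TPM against 8.46 to 1347 TPM (log2 difference 2.01 ± 0.36 to HCC4006, edgeR adjusted p 0.0207); it was chosen after its values were seen. Its lowest LC-2/ad library lay below the attached library of HCC4006, and within each state LC-2/ad was the highest line. Of 28 NRF2 and xenobiotic genes none was called in edgeR, 1 had an unadjusted p under 0.05, DESeq2 called 1 and limma none. KEAP1, the adaptor that marks NRF2 for degradation, stood at 36.4, 34.97 and 49.98 TPM in LC-2/ad, below all 9 others (58.8 to 243 TPM), with an adjusted p of 0.121. Of 22 cell cycle genes none was called in edgeR, 3 had an unadjusted p under 0.05, DESeq2 called 1 and limma none. CCND3, a G1 cyclin, stood at 125, 91.6 and 140.4 TPM in LC-2/ad, above all 9 others (20.7 to 80.5 TPM). Of 22 p53 target genes none was called or had an unadjusted p under 0.05, and DESeq2 and limma called none; DDB2, a DNA damage sensor, stood at 35.8, 27.7 and 28.7 TPM in LC-2/ad, above all 9 others (7.27 to 21.6 TPM).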
